A study of Caenorhabditis elegans with 23 samples.

Results

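After a mutation of hrde-1 was repaired, worms that lacked SET-32 still carried high levels of transcripts from a small set of loci at generations F3 to F8, where worms with SET-32 were at or near 0 at most of these loci. The 9 libraries of repaired worms from F3 to F8 were compared by set-32 genotype. They were taken by their labels alone, out of the 23 samples of the series, of which 19 have values that could be used here. Worms were young adult hermaphrodites of Caenorhabditis elegans, and total RNA was sequenced after depletion of ribosomal RNA, with no selection for poly(A).

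HRDE-1 is an Argonaute protein of the germline nucleus. It binds small RNAs that match silenced genes, recruits nuclear factors to their transcripts, and is needed for silencing to be passed from parent to progeny. SET-32 contains a SET domain, the catalytic fold of most histone methyltransferases. MET-2 and SET-25 methylate histone H3 in heterochromatin. Nuclear RNAi in the worm germline is known for silencing a limited set of endogenous genes and repeats. When hrde-1 is lost these become expressed, and repair of the gene allows the question of whether silencing is set up again.

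Of the 9 repaired libraries, all with the repaired allele hrde-1(+R), 5 were set-32 mutants. The allele set-32(ok1457) was sampled at F5 and F8, set-32(red11) at F4 and F5, and set-32(red11) together with met-2(n4256) set-25(n5021) at F5. The other 4 libraries were set-32(+). Of these, 2 carried hrde-1(+R) with no other mutation, at F4 and F5, and 2 carried it with met-2(n4256) set-25(n5021), at F3 and F5. Unrepaired libraries served as context. In 5 libraries hrde-1 carried the tm1200 mutation, alone, with met-2 set-25, with either set-32 allele, or with set-32(red11) and met-2 set-25. In the other 5 libraries hrde-1 had never been mutated, and these were N2, met-2 set-25, set-32(ok1457), set-32(ok1457) with met-2 set-25, and set-32(red11). Each genotype and generation has 1 library, the labels do not say how the generations sampled from a line are related, and none names a separate culture for a library. The p-values therefore measure the spread between these libraries. The generations are not balanced between the groups, since only set-32(ok1457) was sampled at F8 and only met-2 set-25 at F3.

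Values were RPKM (reads scaled to window length and to the reads of the library) of windows of 1 kb. Estimated depth was 842183 to 1152823 reads in the set-32 mutants, against 495039 to 1097252 reads in the set-32(+) libraries. A single read was worth 0.867 to 1.19 RPKM in the mutants, against 0.911 to 2.02 RPKM in set-32(+). A window listed at 0 leaves room for up to 3 reads, which is 2.6 to 3.56 RPKM in the mutants and 2.73 to 6.06 RPKM in the set-32(+) libraries. In summed markers of sperm, 1 mutant and 1 set-32(+) library stood apart from their groups, and these values are given with the gene lists below. In whole worms, fewer cells of a type and less RNA per cell cannot be told apart.

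The labels were set beside the levels at the mutated loci. Each gene was read at its window that fell most in the libraries labelled with its mutation, repaired and unrepaired together. The windows were thus chosen with the labels, so the separation at set-32, met-2 and set-25 is no independent check of them. At the set-32 window I 9519001 to 9520000 the mutants had 0.88 to 6.94 RPKM, against 8.28 to 16.40 RPKM in set-32(+), with no overlap. This fall of 1.77 ± 0.48 on the log2 scale (SE) did not pass the test across all windows (adjusted p = 0.435). At met-2 the 3 libraries labelled met-2 set-25 had 2.37, 3.57 and 4.56 RPKM, against 29.8 to 50.3 RPKM in the other 6. At set-25 the same 3 had 0 RPKM, against 22.2 to 44.7 RPKM in the other 6. At hrde-1, on chromosome III from 4175001, the mutants had 226 ± 42.4 RPKM (SD, n = 5), against 214 ± 51.3 RPKM in set-32(+) (SD, n = 4). The log2 difference there was 0.06 ± 0.21 (SE), smaller than its standard error.

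Of 41323 windows tested with limma, 31 were higher in the set-32 mutants (0.075%) and 0 were lower. In simulated data this fit made more false calls than the nominal rate. A window counted as called when the Benjamini-Hochberg adjusted p was under 0.05 and the log2 fold change at least 1 in size. At an unadjusted p under 0.05 there were 2629 windows, and the median log2 fold change over all windows tested was 0.03. Windows called within 1 kb of each other were joined into 16 regions, and each region is described at its top window, the one with the largest fold change. In every sentence below, set-32 mutant values run in the order ok1457 F5, ok1457 F8, red11 F4, red11 F5 and red11 met-2 set-25 F5. The set-32(+) values run in the order F4 and F5 without other mutations, then met-2 set-25 at F3 and F5. Fold changes are differences of log2(RPKM + 1) with their standard error, adjusted for met-2 set-25, which understates changes from low levels. At 13 of the 16 top windows every set-32 mutant library was above every set-32(+) library. Over all windows tested that held for 427 (1.03%).

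**Figure D1:**
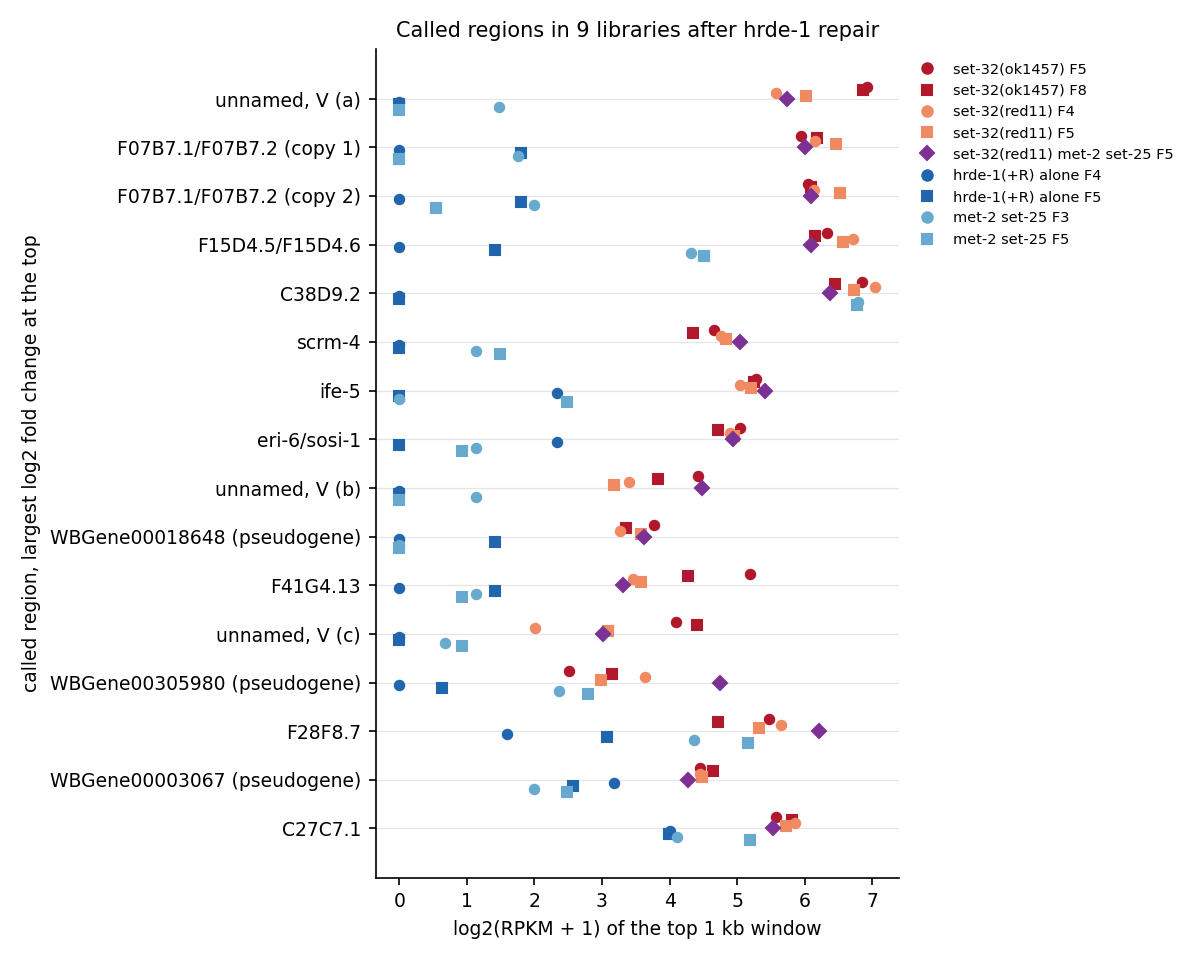
RPKM at the top window of each of the 16 regions called higher in repaired set-32 mutants, on an axis of log2(RPKM + 1), 1 point per library, with the 5 set-32 mutants drawn above the 4 set-32(+) libraries of the same region. The groups overlap at C38D9.2, WBGene00305980 and F28F8.7 and at no other region shown. Unnamed (a), (b) and (c) are the windows of chromosome V at 20299001, 20306001 and 20296001.

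Of the 16 regions, 1 covers a gene of the RNAi pathway itself. That region, at eri-6 and sosi-1, I 4460001 to 4463000, lies in a gene pair where sosi-1 is nested within eri-6, and its top window from 4461001 is exonic throughout. The gene eri-6 encodes part of an RNA helicase of the endogenous RNAi pathway and is joined to eri-7 by trans-splicing. The set-32 mutants had 32.1, 25.4, 28.6, 30 and 29.7 RPKM there, against 4.04, 0, 1.19 and 0.91 RPKM in set-32(+). The mutants lay within 7 RPKM of each other and each was above every set-32(+) library. The fold change was 3.79 ± 0.43 (SE, adjusted p = 1.69e-04). Averaged over its own 3 windows, sosi-1 stood at 22.8 ± 3.81 RPKM in the mutants (SD, n = 5), against 1.48 ± 0.42 RPKM in set-32(+) (SD, n = 4). Over the whole of eri-6, most of which lies outside those windows, the log2 fold change was 1.55 ± 0.22 (SE, adjusted p = 0.0322). That value includes the windows of sosi-1, so it does not show a rise of eri-6 apart from them. The windows on either side of the region averaged 2.16 and 1.93 RPKM in the mutants, against 1.97 and 1.56 RPKM in set-32(+). The trans-spliced partner eri-7 had a log2 fold change of -0.64 ± 0.33 (SE, adjusted p = 0.942).

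A translation factor of the germline rose as well. The gene ife-5 encodes 1 of the worm's eIF4E proteins, which bind the mRNA cap. At its window II 12283001 to 12284000 the set-32 mutants had 37.9, 37.1, 32.1, 35.8 and 41.6 RPKM, against 4.04, 0, 0 and 4.56 RPKM in set-32(+). All 5 mutants lay in a narrow band above all 4 set-32(+) libraries, and the fold change was 4.08 ± 0.50 (SE, adjusted p = 4.17e-04). The adjoining windows averaged 3.66 and 3.53 RPKM in the mutants, against 0.72 and 0.732 RPKM in set-32(+). The rest of the family did not pass the test. Its other members ife-1, ife-2, ife-3 and ife-4 had log2 fold changes of -0.08, -0.30, 0.01 and -0.02.

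A membrane protein gene showed the same separation. The gene scrm-4 encodes a member of the phospholipid scramblase family, and its region spans I 11681001 to 11683000. Its top window had 24.3, 19.3, 26 and 27.7 RPKM in the 4 mutants with normal met-2 set-25 and 32.1 RPKM in red11 met-2 set-25, against 0, 0, 1.19 and 1.82 RPKM in set-32(+). No library of either group came near the other. The fold change was 4.35 ± 0.38 (SE, adjusted p = 3.69e-06). The window just before it, from 11680001, averaged 9.09 RPKM in the mutants and 9.92 RPKM in set-32(+). Its relative scrm-1 had a log2 fold change of -0.18, at 2.77 RPKM in the mutants and 3.19 RPKM in set-32(+), and scrm-2, scrm-3, scrm-5, scrm-6, scrm-7 and scrm-8 fell below the filter on low values.

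Most of the strongest signal came from genes whose products have no role described here. The genes F07B7.2 and F07B7.1 are each annotated at 2 places, V 8828001 to 8832000 and V 8870001 to 8874000. At the top window of the first place, from 8830001, the set-32 mutants had 60.8, 71.9, 70.3, 87.1 and 63.5 RPKM, against 0, 2.48, 2.38 and 0 RPKM in set-32(+). At the second, from 8872001, the mutants had 65.1, 67.1, 69.8, 91.1 and 67.1 RPKM, against 0, 2.48, 2.98 and 0.46 RPKM in set-32(+). Both places gave nearly the same value in each library, and the window at the second held mostly fractions of a read, so they are uncertain as separate results. The fold changes were 5.24 ± 0.41 and 5.14 ± 0.39 (SE, adjusted p = 5.62e-07 and 4.18e-07). In the window that covers F07B7.2, from 8829001, levels were higher in both groups, with a mean of 125.09 RPKM in the mutants and 8.48 RPKM in set-32(+). The windows adjoining the first place averaged 0.26 and 1.42 RPKM in the mutants, and those adjoining the second 0.26 and 1.46 RPKM.

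The region of F15D4.5 and F15D4.6, II 13245001 to 13250000, separated the groups less evenly. Its top window from 13246001 had 79.7, 70.1, 105, 94 and 67.7 RPKM in the set-32 mutants, against 0 and 1.66 RPKM in the set-32(+) libraries without other mutations and 19 and 21.9 RPKM in those with met-2 set-25. The groups did not overlap, but the set-32(+) libraries split by met-2 set-25. The fold change was 4.39 ± 0.53 (SE, adjusted p = 3.14e-04). At C38D9.2, V 17569001 to 17571000, that split was complete. The set-32 mutants had 114.73, 86.8, 130.98, 105 and 81.9 RPKM, against 0 and 0 RPKM in set-32(+) without other mutations and 110 and 108 RPKM in set-32(+) with met-2 set-25. The groups overlapped, and the fold change of 4.38 ± 0.81 (SE, adjusted p = 0.0448) averages over a difference present on one met-2 set-25 background only. That call was lost in 15 of 22 alternative settings.

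**Figure D2:**
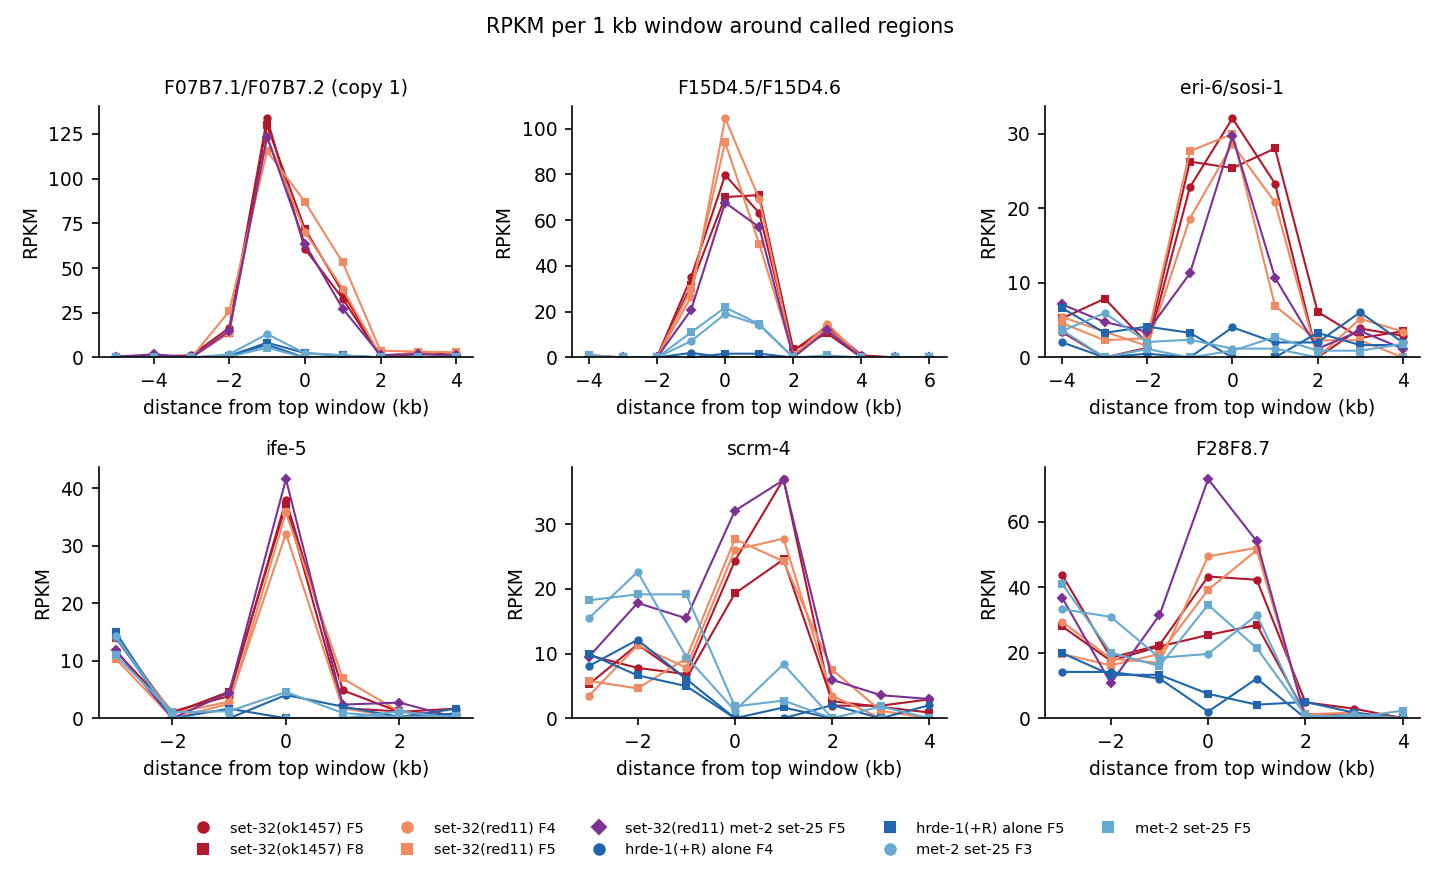
RPKM in windows of 1 kb around the top window of 6 regions, by distance in kb from that window, 1 line per library, for the 5 set-32 mutants and the 4 set-32(+) libraries. At F07B7.1/F07B7.2, scrm-4, ife-5 and eri-6/sosi-1 every mutant line stands above every set-32(+) line at distance 0, while at F28F8.7 the lines overlap.

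Several called windows carry no gene name, because the last part of chromosome V in the table could not be placed against the annotation. The window from 20299001 had the largest fold change of all. It had 121, 115.25, 46.8, 64 and 52.3 RPKM in the set-32 mutants, against 0, 0, 1.79 and 0 RPKM in set-32(+). The ok1457 libraries were the highest, and the lowest mutant was still far above the only set-32(+) library above 0. The fold change was 5.90 ± 0.41 (SE, adjusted p = 2.00e-07). A few kb away, the window from 20306001 had 20.4, 13.2, 9.54, 8.08 and 21.4 RPKM in the mutants, against 0, 0, 1.19 and 0 RPKM in set-32(+). Its fold change was 3.78 ± 0.47 (SE, adjusted p = 5.29e-04). The window from 20296001 rested on few reads, with 16, 20.2, 3.04, 7.5 and 7.12 RPKM in the mutants, against 0, 0, 0.6 and 0.91 RPKM in set-32(+). Its fold change was 3.01 ± 0.56 (SE, adjusted p = 0.0457), and the call was lost in 18 of 21 alternatives.

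Pseudogenes gave 3 of the regions. At WBGene00018648, in the window IV 4130001 to 4131000, the set-32 mutants had 12.64, 9.2, 8.67, 11 and 11.3 RPKM, against 0, 1.66, 0 and 0 RPKM in set-32(+). The groups were apart, at 9.5 to 13 reads in a mutant library against at most 1 read in a set-32(+) library, and the fold change was 3.07 ± 0.48 (SE, adjusted p = 0.00829). WBGene00003067, in the window III 9505001 to 9506000, had 20.9, 24.1, 20.8, 21.3 and 18.4 RPKM in the mutants, against 8.08, 4.97, 2.98 and 4.56 RPKM in set-32(+). No set-32(+) library was at 0 here, and the fold change was 1.77 ± 0.31 (SE, adjusted p = 0.0299). WBGene00305980, in the window III 7671001 to 7672000, had 4.7, 7.89, 11.4, 6.92 and 25.7 RPKM in the mutants, against 0, 0.55, 4.17 and 5.92 RPKM in set-32(+). These groups overlapped, and 1 mutant library lay far above the rest. The fold change was 2.56 ± 0.44 (SE, adjusted p = 0.0216). The calls at WBGene00003067 and WBGene00305980 were lost in 17 and 15 of 21 alternatives, and that at WBGene00018648 in 10 of 22.

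The last 3 regions cover genes of no stated role. F41G4.13, in the window X 16833001 to 16834000, had 35.5, 18.4, 9.98, 11 and 8.91 RPKM in the set-32 mutants, against 0, 1.66, 1.19 and 0.91 RPKM in set-32(+), a fold change of 3.04 ± 0.50 (SE, adjusted p = 0.014). In the next windows, which were not called, ok1457 stood apart from the other mutants. From 16835001 the mutants had 75.4, 32.9, 2.17, 2.31 and 0 RPKM, against 0, 1.66, 5.36 and 1.82 RPKM in set-32(+). C27C7.1, in the window I 11440001 to 11441000, had 46.5, 55.2, 57.1, 52.1 and 45.1 RPKM in the mutants, against 15.2, 14.9, 16.3 and 35.5 RPKM in set-32(+). The set-32(+) library met-2 set-25 F5 was closer to the mutants than to its own group, and the fold change was 1.45 ± 0.26 (SE, adjusted p = 0.0371). F28F8.7, V 15579001 to 15581000, had 43.3, 25.4, 49.4, 39.2 and 73 RPKM in the mutants, against 2.02, 7.45, 19.6 and 34.6 RPKM in set-32(+). Here the ok1457 F8 library fell below the set-32(+) library met-2 set-25 F5, and the fold change was 2.46 ± 0.36 (SE, adjusted p = 0.00361). The call at F41G4.13 was lost in 11 of 22 alternatives, that at C27C7.1 in 16 of 21 and that at F28F8.7 in 6 of 22.

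**Figure D3:**
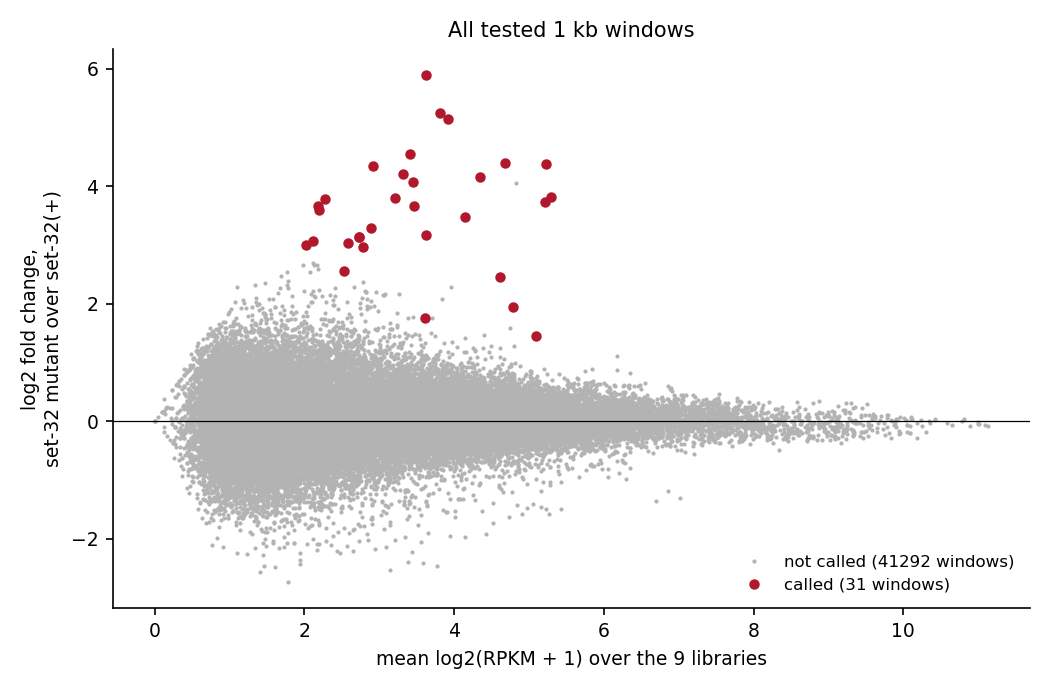
log2 fold change of each of the 41323 windows tested (set-32 mutants over set-32(+), repaired F3 to F8) against its mean level, with the 31 called windows marked. All 31 lie above 0, and the median of all windows is 0.03.

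Position, divided reads and exon share were not used to call the windows. Chromosome V held 16 of the 31 (51.6%) and 6675 of the 41323 windows tested, and 8 of the 16 are the paired copies of F07B7.1 and F07B7.2. Reads shared between copies of a sequence were frequent: 12 of 31 windows (38.7%) held mostly fractions of a read, against 10.7% of those tested. Exons covered a median of 62.1% of a called window, against 47.1%. The authors marked windows as GRH or GRTS in their table, with no account in the sources used here of how the marks were set. A GRTS mark stood on 19 of the 31 (61.3%), against 0.344% of the windows tested, and a GRH mark on 13 (41.9%), against 0.423%. These marks may have been set from the same libraries and are not independent of the result. In the levels that made the calls, given as a description, the called windows had a median of 30.1 RPKM in the set-32 mutants and 1.49 RPKM in set-32(+), while all tested windows had a median of 6.75 RPKM in the mutants and 6.77 RPKM in set-32(+).

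Within the set-32 mutants the libraries were alike over the 16 top windows. Their medians were 36.7 RPKM in ok1457 F5, 25.4 in ok1457 F8, 30.4 in red11 F4, 32.9 in red11 F5 and 36.8 in red11 met-2 set-25 F5. The medians of the set-32(+) libraries were 0 RPKM at F4, 1.1 at F5, and 2.08 and 1.36 for met-2 set-25 at F3 and F5. At least 5 RPKM was reached at 15 or 16 of the 16 windows in every mutant, against 2 and 2 in set-32(+) without other mutations and 4 and 5 in set-32(+) with met-2 set-25. The windows were called from these same libraries, so the medians and counts are a description. The alleles differed at few windows. The ok1457 mean was over 2 times the mean of the 2 red11 libraries with normal met-2 set-25 at 3 windows, those at V 20299001 (2.13 times), V 20296001 (3.43 times) and F41G4.13 (2.57 times). The reverse occurred at 0 windows, and the median ratio was 0.956. The difference of ok1457 from red11 was tested with limma over the 9 libraries, a test chosen after these ratios were seen, and 0 of the 16 top windows passed. At V 20299001, V 20296001 and F41G4.13 the log2 difference was 1.25 ± 0.49, 1.76 ± 0.65 and 1.32 ± 0.62 (SE, unadjusted p = 0.0207, 0.0144 and 0.0471, adjusted p = 1 for each). Over all 41323 windows 3 were called higher in ok1457 (0.00726%) and 1 lower (0.00242%), with 1386 at an unadjusted p under 0.05, and 0 of these 4 were among the 31.

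Generations of a line could be compared in 1 pair of libraries each, with no test. In set-32(ok1457), F8 over F5 had a median ratio of 0.918 over the 16 windows, with a range of 0.519 to 1.68, and F8 was the lower at 10 of 16. In set-32(red11), F5 over F4 had a median ratio of 1.06, with a range of 0.606 to 2.47, and F5 was the lower at 6 of 16. In ok1457 F8, the latest generation analysed here, 16 of 16 windows had at least 5 RPKM, but this library took part in calling them. When F5 libraries alone were compared, 3 mutants against 2 set-32(+), 6 windows were called and all 6 were among the 31.

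The role of met-2 set-25 was tested as an interaction, that is, whether the effect of set-32 loss differed with met-2 set-25 mutated. Only 1 library, red11 met-2 set-25 F5, carries both, so the interaction rests on it. Of 41323 windows, 1 was called higher (0.00242%) and 4 were called lower (0.00968%), with 3040 at an unadjusted p under 0.05. At C38D9.2 the interaction was -7.18 ± 0.45 (SE, adjusted p = 6.19e-07), the largest of the 5 in size. The red11 met-2 set-25 library had 81.9 RPKM, against 110 and 108 RPKM in set-32(+) met-2 set-25, while on normal met-2 set-25 the mutants had 86.8 to 130.98 RPKM, against 0 in both set-32(+) libraries. This call held in 11 of 11 alternatives. None of these left out red11 met-2 set-25 F5, so they cannot show how far the call depends on that library. At F15D4.5 the interaction was -4.06 ± 0.62 (SE, adjusted p = 0.0431), and this call was lost in 9 of 11. The opposite pattern occurred at C27D9.1, in the window II 4754001 to 4755000. There the 4 mutants with normal met-2 set-25 had 30.1, 32.4, 38.2 and 42.7 RPKM and red11 met-2 set-25 had 36.8, against 34.3 and 33.1 RPKM in set-32(+) and 2.38 and 1.82 RPKM in set-32(+) with met-2 set-25. The low level thus occurred in set-32(+) met-2 set-25 and in no other repaired library. The interaction of 3.54 ± 0.53 (SE, adjusted p = 0.0395) was lost in 8 of 11 alternatives.

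**Figure D4:**
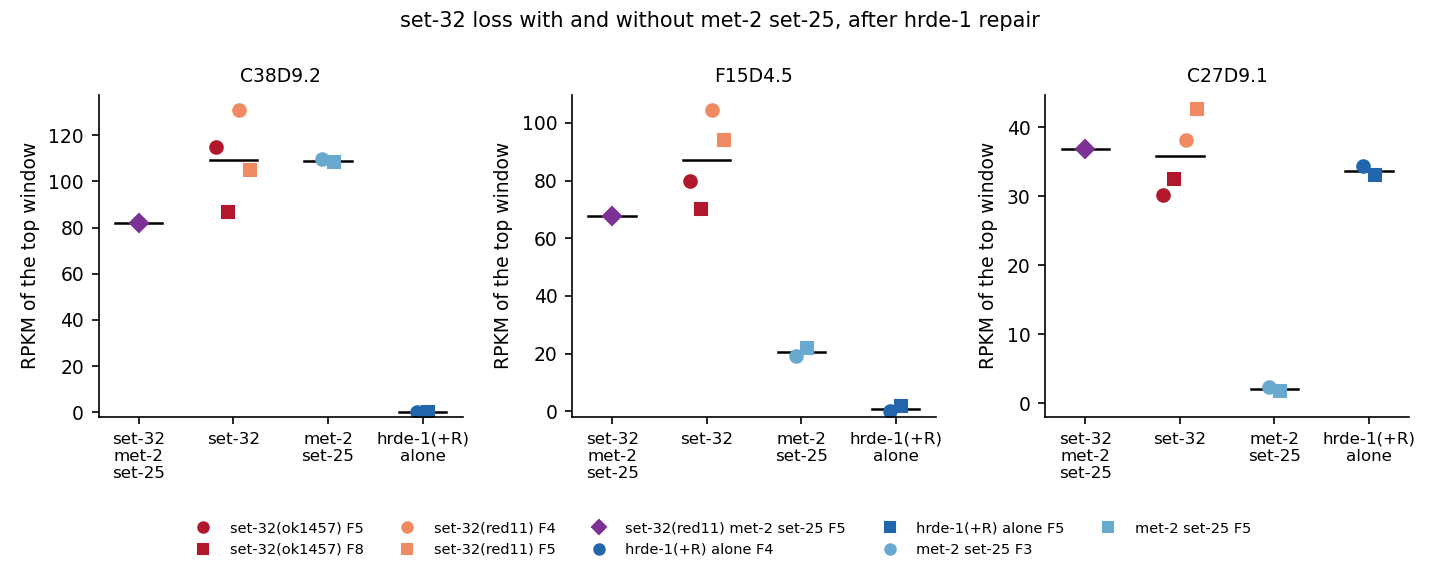
RPKM per library at C38D9.2, F15D4.5 and C27D9.1, with set-32 mutants left of set-32(+) on each met-2 set-25 background. At C38D9.2 both set-32(+) libraries with met-2 set-25 are as high as the mutants, at 110 and 108 RPKM, and both without it are listed at 0.

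At most of the 16 top windows set-32 mutants were higher on both met-2 set-25 backgrounds. The red11 met-2 set-25 library was above both set-32(+) met-2 set-25 libraries at 15 of 16, with C38D9.2 as the exception. The other 4 mutants were above both set-32(+) libraries without other mutations at 16 of 16. All of these libraries took part in calling the windows, so the counts are a description and no separate evidence. Without the 3 met-2 set-25 libraries, 32 windows were called, of which 24 were among the 31.

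The effect of set-32 loss after repair was then set against its effect where hrde-1 had never been mutated, over all 19 libraries. The difference of the effects was called higher at 12 windows (0.029%) in 7 regions and lower at 0, with 1452 windows at an unadjusted p under 0.05. In never-mutated worms the F07B7.1 window at V 8830001 had 0, 0.58 and 0 RPKM in set-32 mutants, against 1.42 RPKM in N2 and 0 in met-2 set-25. All 5 were near 0, set-32 mutant or not, and the effect after repair exceeded that in never-mutated worms by 5.70 ± 0.71 on the log2 scale (SE, adjusted p = 9.96e-05). The difference was 5.83 ± 0.74 at V 20299001, 5.49 ± 0.63 at F07B7.2 and 5.27 ± 0.95 at F15D4.5 (adjusted p = 1.09e-04, 2.76e-05 and 0.0226). It was 4.64 ± 0.74 at eri-6 and sosi-1, 4.22 ± 0.75 at scrm-4 and 4.01 ± 0.75 at WBGene00018648 (adjusted p = 0.00435, 0.0203 and 0.0328). The call at WBGene00018648 was lost in 9 of 12 alternatives and that at F15D4.5 in 5 of 12.

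Other regions were not shown to differ in this way, and some set-32 mutants were high without any hrde-1 mutation. At ife-5 the never-mutated set-32 mutants had 22.9, 18.4 and 21.9 RPKM, against 8.49 RPKM in N2 and 5.02 in met-2 set-25. Every set-32 mutant was above both set-32(+) libraries there, with an effect of 1.55 ± 0.55 on the log2 scale, and the effect after repair exceeded it by 2.50 (adjusted p = 0.999). At F28F8.7 the never-mutated set-32 mutants had 20.8, 44.9 and 48.8 RPKM, against 2.83 RPKM in N2 and 25.1 in met-2 set-25. The set-32 effect there was 2.10 ± 0.54 without an hrde-1 mutation and 2.33 ± 0.41 after repair, a difference of 0.23 (adjusted p = 0.999).

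Against hrde-1(tm1200) worms the difference of the set-32 effects was called higher at 9 windows (0.0218%) in 5 regions and lower at 0, with 2015 windows at an unadjusted p under 0.05. In tm1200 worms the F07B7.1 window at V 8830001 had 38.2, 102 and 100.83 RPKM in set-32 mutants, against 43.8 and 72.7 RPKM in set-32(+). The gene was high in all 5 and the groups overlapped. The effect after repair exceeded that in tm1200 by 4.91 ± 0.71 (SE, adjusted p = 0.00191). The excess was 5.31 ± 0.74 at V 20299001, 4.87 ± 0.66 at the other F07B7.1 copy, 4.46 ± 0.75 at scrm-4 and 4.33 ± 0.69 at ife-5 (adjusted p = 0.00169, 0.00169, 0.00981 and 0.00504). Both differences use the same 9 repaired libraries and are not independent of each other. With a pseudocount of 0.1 the called windows fell to 3 for the comparison with never-mutated worms and to 0 for that with tm1200.

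**Figure D5:**
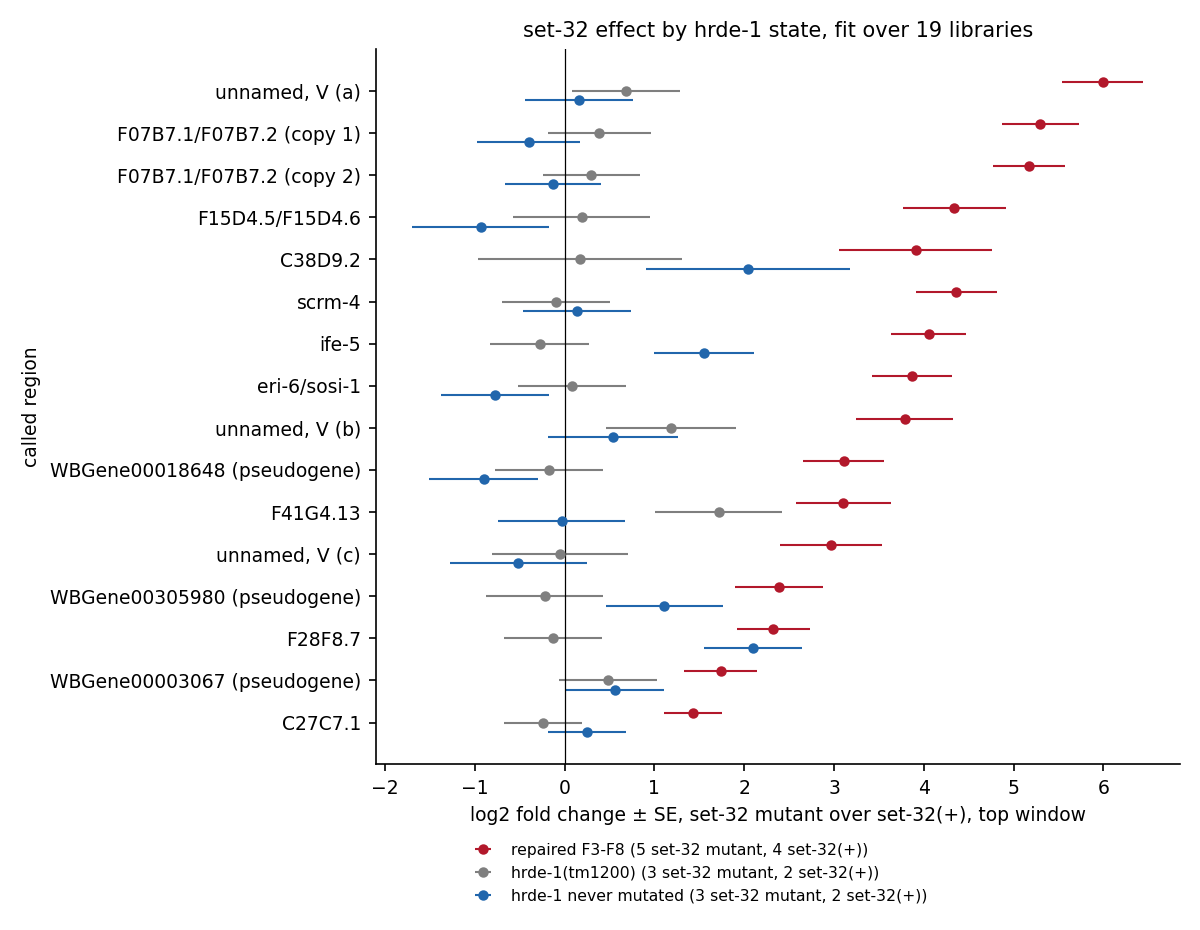
Effect of set-32 loss (log2, set-32 mutants over set-32(+), with standard error) at each of the 16 top windows in repaired, hrde-1(tm1200) and never-mutated worms, from a fit over 19 libraries. The repaired effect is between 1.43 and 5.99 at all 16, while the tm1200 effect is between -0.28 and 1.72 and the never-mutated effect between -0.93 and 2.10. The 16 windows were chosen for a high repaired effect in the same repaired libraries, which favours that effect alone, so these ranges are a description.

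The levels after repair can be set beside those in worms still carrying tm1200. The tm1200 mean less the never-mutated mean was taken as 100%, and the 5 repaired set-32 mutants were placed on that scale. F07B7.1 stood at 99% ± 14.4 at the first copy, F15D4.5 at 108% ± 24 and eri-6 and sosi-1 at 81.2% ± 7.28 (SD, n = 5). The level was thus within the mutants' spread of the tm1200 level at F07B7.1 and F15D4.5. At ife-5, where tm1200 libraries had 48 to 104.01 RPKM, the repaired mutants reached 42.3% ± 6.75, and at WBGene00018648 they reached 37.9% ± 6.25 (SD, n = 5). At scrm-4 and C38D9.2 their mean stood above the tm1200 mean, with C38D9.2 at 174% ± 36.4. At scrm-4 the repaired mutants had 19.28 to 32.06 RPKM, within the tm1200 range of 6.54 to 32.5 RPKM. These SD cover the repaired mutants alone and not the spread of the unrepaired libraries. The windows were called for high levels in these same mutants, which favours high percentages.

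The same comparison was extended to windows that rose with tm1200. In the 10 unrepaired libraries, none of which is among the 9 repaired ones, 153 windows were higher in tm1200 than in never-mutated worms (0.37%) and 10 were lower (0.0242%). Of the 31 windows called after repair, 27 (87.1%) were among these 153, and they are 17.6% of them. The 4 others were both windows of F28F8.7 and those of WBGene00003067 and C27C7.1. Of the 153, 42 had every repaired set-32 mutant above every repaired set-32(+) library (27.5%, against 1.03% of all windows tested). The median log2 fold change of the 153 was 1.19, with 136 of 153 above 0. Over all windows tested it was 0.031, with 21882 of 41323 above 0. Among those of the 153 that were not called after repair, 18 had complete separation (14.3%), and the median was 0.96.

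Windows just short of the threshold were of the same kind in part. C40A11.7 and C40A11.8, in the window II 2150001 to 2151000, had 8.75, 7.89, 13.5, 4.61 and 11.9 RPKM in the set-32 mutants, against 0, 1.66, 1.19 and 0 RPKM in set-32(+), with a log2 difference of 2.70 ± 0.52 (SE, adjusted p = 0.0619). C30G12.2, in the window II 7291001 to 7292000, had 51.5, 49.1, 32.1, 24.2 and 23.8 RPKM in the mutants, against 20.2, 8.28, 9.52 and 6.38 RPKM in set-32(+) (log2 difference 1.47, adjusted p = 0.167). Neither pair of groups overlapped. The window of C40A11.7 rose with tm1200 in unrepaired worms (log2 difference 3.421, adjusted p = 9.19e-04). C30G12.2 did not (log2 difference -0.05, adjusted p = 0.995). There never-mutated set-32 mutants were high too, with a mean of 38 RPKM, against 8.64 RPKM in never-mutated set-32(+). The set-32 effect at C30G12.2 after repair differed by -0.047 from that in never-mutated worms and by 0.068 from that in tm1200 (adjusted p = 0.999 and 0.998). The windows at cutl-26, str-238 and pig-1, on chromosomes IV, V and IV, held fractions of reads and had nearly equal values in each library, such as 8.59, 8.1 and 8.1 RPKM in ok1457 F5. Their log2 differences were 2.38, 2.21 and 2.21 (adjusted p = 0.112, 0.167 and 0.167). They lie outside exons, so these gene names mark position only. At each of them the set-32(+) libraries split by met-2 set-25. At cutl-26 these had 0 and 0.55 RPKM without it and 7.97 and 8.2 RPKM with it, against 8.59 to 12.9 RPKM in the mutants. The groups overlapped at pig-1. Also among the 10 next higher were windows at H11L12.1, fbxa-192, T16G12.4, bath-13 and Y38F2AL.12. The log2 differences there were 2.08, 2.19, 1.76, 2.285 and 2.31 (adjusted p = 0.0788, 0.156, 0.167, 0.167 and 0.167). The groups also overlapped at fbxa-192 and bath-13.

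On the lower side nothing passed in the fit given above. Lower windows were called in some alternatives, 25 with means over the generations of each line, 8 with generation as a block and 1 with ok1457 mutants only, and 1 to 3 when any of 4 single libraries was left out. The lowest p belonged to dpy-9, which encodes a cuticle collagen, at IV 257001. The set-32 mutants had 0, 0.88, 0.87, 1.15 and 0 RPKM, against 12.1, 4.97, 4.76 and 5.47 RPKM in set-32(+). The groups did not overlap, but a mutant library held at most 1 read, and the log2 difference of -2.48 ± 0.51 (SE) had an adjusted p of 0.119. The collagen gene col-107 had 2.37 to 7.01 RPKM in the mutants, against 7.14 to 82.8 RPKM in set-32(+) (log2 difference -2.42, adjusted p = 0.163), and was called lower in 4 of 22 alternatives. Next by p among the lower windows were F35B3.4, ZC247.1 and E01G4.6. Their log2 differences were -2.55, -1.075 and -2.74 (adjusted p = 0.164, 0.167 and 0.192). The groups overlapped at ZC247.1 and E01G4.6, and at F35B3.4 a mutant library held at most 1 read.

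At the level of genes, 10 of 11264 were called higher (0.0888%) and 0 lower, with 584 at an unadjusted p under 0.05. All 10 were among the 14 tested entries of a list of nuclear RNAi targets, which was drawn up with earlier results of these data known and so is no independent evidence. They were scrm-4, F07B7.1 and F07B7.2 at both copies, sosi-1, F15D4.5, F15D4.6, ife-5 and eri-6. The value of eri-6 includes the windows of sosi-1, so the calls at these genes are not separate results. The call was lost in 11 of 12 alternatives at eri-6, in 7 at F15D4.5, in 3 at ife-5 and in 1 at 1 copy of F07B7.1. Not called were C38D9.2, bath-45, E01G4.5 and R03H10.6, with log2 fold changes of 3.58, 0.65, -0.36 and 0.14, and C38D9.2 was called in 2 of 12 alternatives. The median over the list was 3.59, against -0.01 over all genes tested.

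Apart from eri-6, which was counted with the targets, 0 genes listed for silencing, chromatin or P granules were called. Over all genes tested 0.0888% were called, so 0 calls in lists of this size do not show that these genes were unchanged. Of 10 nuclear RNAi factors, such as hrde-1, morc-1 and emb-4, 0 were called and the median log2 fold change was 0.09. Of 38 genes of the wider small RNA pathway 0 were called, 5 had an unadjusted p under 0.05 and the median was 0.12. The lowest p there was at ppw-2, an Argonaute gene also known as wago-3, with 69.6 ± 11.6 RPKM in the set-32 mutants (SD, n = 5), against 42.3 ± 7.92 RPKM in set-32(+) (SD, n = 4). Its log2 fold change was 0.59 ± 0.15 (SE, adjusted p = 0.549). Of 24 chromatin factors 0 were called, with a median of 0.10, and of 18 P granule genes 0 were called, with a median of 0.15. Without the set-32(+) F4 library these medians were 0.003 for nuclear RNAi factors, -0.009 for the small RNA pathway, -0.053 for chromatin factors and 0.011 for P granule genes.

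Tissue markers and stage-dependent genes were counted in the same way, and 0 genes were called in any of these lists. Beside the 0.0888% called over all genes tested, this count too does not show that tissues or stages were alike. The median log2 fold change was 0.18 over 20 oocyte markers, 0.04 over 6 vitellogenins, 0.07 over 21 muscle markers, -0.02 over 12 intestine markers and -0.18 over 13 neuron markers. It was -0.19 over 20 heat shock genes and -0.18 over 71 histone genes. Several of these medians moved when 1 library was left out. Without the set-32(+) F4 library the oocyte median was 0, with 10 of 20 genes above 0, against 19 of 20 with it, and the vitellogenin median was -0.07. Without the set-32(+) F5 library the histone median was 0.021, without ok1457 F8 the muscle median was -0.094, and without red11 met-2 set-25 F5 the heat shock median was 0.01. Larger shifts occurred in cuticle collagens and sperm genes. Over 88 collagens the median was -1.204, with 74 below 0 and 16 at an unadjusted p under 0.05, and it was -0.41 without the set-32(+) F4 library. The summed collagen level was 7133 to 18583 RPKM in the mutants, against 6784 to 22943 RPKM in set-32(+). Over 40 sperm genes the median was -0.46. It was 0.13 without the same library, -0.10 without ok1457 F5, -0.94 without ok1457 F8 and -0.98 without the set-32(+) F5 library. The summed sperm level was 1476 RPKM in ok1457 F8 and 97.5 to 384 RPKM in the other mutants, against 947 RPKM in the set-32(+) F4 library and 182.4 to 206.9 RPKM in the other set-32(+) libraries. The part of these shifts in the results at the 16 regions was not tested. Without the set-32(+) F4 library 26 windows were called higher, and 23 were called without the ok1457 F8 library, with 24 and 23 of them among the 31.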

How the data were processed

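Total RNA of young adult hermaphrodites was sequenced after depletion of ribosomal RNA with RNase H, per the labels' protocols. The deposited table gives RPKM values computed by the authors for 100257 windows of 1 kb. The submitters' processing notes name Bowtie 0.12.7. Not given in the sources used here are the build, the strand setting and how reads matching several places were treated. The RPKM steps gave the estimated depth. No count test was run, since a whole number of reads (within 0.0051 RPKM) fitted only 82.0% to 84.4% of the values above 0. The rest were fractions, as divided reads would be. Of the table's columns, 24 hold values of other samples and were not used, and the 4 F20 libraries were not analysed here.

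Windows averaging 1 RPKM or more over 19 libraries were tested on log2(RPKM + 1) with limma 3.58.1 (trended eBayes) in R 4.3.3. The model held set-32 state and met-2 set-25. Comparisons between hrde-1 states used all 19 libraries with a shared spread. Called windows passed 0.05 after Benjamini-Hochberg adjustment with a log2 fold change of 1 or more in size. Gene values were means of windows overlapping a gene by at least 500 bp, or else its best window. Fits were tested on simulated data, where they made more false calls than the nominal rate.

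The regions named were all those called, the 10 next higher and 5 lowest by p, the mutated loci and list members. The members and lists were chosen with earlier results of these data known. The p-values are over all windows or genes. Depth limits precision: low windows hold few reads, and limits from counts cover counting error only. Names come from WBcel235 (Ensembl 115), after the table's windows were compared with its exon density. Only windows of chromosome V from 19500 kb were left unnamed. Of 201 segments of 500 windows, 191 matched within 100 bp. The segment with F28F8.7 was not among these, with its best match at -300 bp (correlation 0.152). The segment with C38D9.2 matched at 100 bp with a correlation of 0.123, so both names are less certain. Coordinates are the table's own, counted from 1. Alternatives were pseudocount, filter, scaling, covariate, subsets of alleles or generations, means per line, divided reads, and leaving out each library. Generation as a block and the test between alleles were added after seeing the data.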

Additional observations from a re-analysis of the deposited data

Results flagged for a closer look

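Among 64 groups of 4 or 5 libraries, 7 held a library far from the others of its group, where chance gives about 1 in 20. In the set-32 mutants these were red11 F5 with 91.1 RPKM at the second copy of F07B7.1 and ok1457 F8 with a summed sperm gene level of 1475.7 RPKM. In set-32(+) they were met-2 set-25 F3 with 1.79 RPKM at V 20299001 and 1.19 RPKM at V 20306001, the F5 library without other mutations with 1.66 RPKM at WBGene00018648, met-2 set-25 F5 with 35.5 RPKM at C27C7.1, and the F4 library without other mutations with 946.9 RPKM over sperm genes. The value of 1.79 RPKM stands for 1.5 reads, a fraction, and those of 1.19 and 1.66 RPKM for 1 read each.

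The effect of set-32 loss differed between hrde-1 states in a test of the difference itself. Repaired minus never mutated it was 5.83 at V 20299001, 5.70 at F07B7.1, 5.49 at F07B7.2, 5.27 at F15D4.5, 4.64 at eri-6 and sosi-1, 4.22 at scrm-4 and 4.01 at WBGene00018648 (log2). Repaired minus tm1200 it was 5.31 at V 20299001, 4.91 and 4.87 at the 2 copies of F07B7.1, 4.46 at scrm-4 and 4.33 at ife-5 (log2). The effect also differed with met-2 set-25, by 3.54 at C27D9.1, -7.18 at C38D9.2 and -4.06 at F15D4.5 (log2), which rests on the 1 library that carries both.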

How the results depend on the processing

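None of the 16 regions reversed its direction under any alternative run. The regions were chosen for large rises in these same libraries, which every alternative reused, so a reversal was unlikely from the start. Against 31 windows called after repair (31 higher), a pseudocount of 0.1 gave 17, lowering the filter to a mean of 0.2 RPKM gave 12 and dropping it gave 6. There were 13 with ok1457 mutants only (1 lower), 18 with red11 mutants only, 6 with F5 only, 20 without windows of divided reads and 52 with means per line (25 lower). Leaving out 1 library gave 23 to 58, the highest without red11 met-2 set-25 F5, where 27 of the 31 were called. No covariate, median-ratio scaling, no met-2 set-25 libraries and the 19-library fit gave 27 to 32. For repaired minus never mutated, 12 became 3 with a pseudocount of 0.1, and leaving out 1 library gave 8 to 11. For repaired minus tm1200, 9 became 0 with that pseudocount in limma, and 8 to 11. For the interaction with met-2 set-25, 5 became 8 with that pseudocount and 304 with a minimum mean of 0.2 RPKM (293 higher), and 3 to 9 without 1 library, the highest without the set-32(+) F5 library without other mutations. It could not be fitted without red11 met-2 set-25 F5. At the gene level, 10 became 6 with that pseudocount, and 7 to 9 without 1 library. The cause was not tested. The labels give no replicate numbers shared between the groups. Generation as a replicate block, chosen after seeing the data, gave 32 windows (24 higher, all among the 31, and 8 lower). Depth limits low windows: at 19 of the 31 the set-32(+) mean was under 3 RPKM.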
